A study of Mus musculus with 79 samples.

Results

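The potassium channel genes described here were taken from the gene symbols. They are all genes of the count table whose symbol starts with Kcn, continues with letters and ends in a number, leaving out the Kcnq genes, Kcnj10 and Kcnj13. The rule gave 85 of 55471 genes and used no measured value. The genes fell into 10 classes, with 70 genes for pore-forming subunits and 15 for auxiliary subunits. RNA-seq was carried out on the medial prefrontal cortex (mPFC) and the ventral hippocampus (vHipp) of 40 male mice, labelled WT and, by the methods of the study, CD-1 (ICR) mice of 9 to 10 weeks. Mice were either kept as group-housed controls (CTRL) or put through 21 days of a modified, group-housed form of chronic social defeat stress (CSDS), and were given 1 injection of ketamine (10 mg/kg) or saline. Tissue was taken 7 days after the injection. The 8 groups of region, stress and treatment held 10 libraries each, apart from mPFC of CSDS mice given ketamine, which held 9. All mice shared the strain, sex and group housing, and the labels give neither the social rank of a mouse nor the box it lived in. Each library came from tissue punches and so held all cell types of the punch. In such bulk tissue, fewer cells of a type cannot be told apart from less RNA per cell.

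Potassium channels let potassium ions leave or enter the cell and so set the resting potential, the shape of the action potential and the firing rate of neurons. Voltage-gated (Kv) channels open on depolarization, calcium- and sodium-activated channels open when these ions build up inside the cell, inward rectifiers hold the membrane near rest, and two-pore channels carry background leak current. Auxiliary subunits form no pore but change the trafficking and gating of the channels they bind. Ketamine blocks NMDA receptors and is used as a fast-acting antidepressant. The study compared stressed with control mice within each treatment and social rank, with the social box in its model. It reported differentially expressed genes mainly in mPFC of dominant mice given ketamine. The comparisons below pool the ranks and have no term for the box, so they are not the comparisons of the study.

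The pore-forming genes share the selectivity filter, the short loop that strips water from potassium ions. A search of the coding sequences for a threonine or serine codon, then a valine, isoleucine, leucine, alanine or threonine codon, a glycine codon, a tyrosine or phenylalanine codon and a second glycine codon found this signature in 70 of 70 pore-forming genes and in 0 of 15 auxiliary genes. The codon choice was widened after a narrower pattern had missed several classes. Of the 14 two-pore genes, 11 held at least 2 copies. Below are windows of 30 bases from GRCm38 for the genes on which the results turn, each read in the direction of the gene, with the 5 codons of the signature in capitals.
Kcns3: atcagtatgaccACAGTGGGCTATGGAgac
Kcnf1: atcaccatgaccACAGTGGGCTATGGTgac
Kcng4: atctccatgacgACCGTGGGCTATGGGgac
Kcna4: gtaaccatgacaACTGTGGGCTATGGGgac
Kcnc1: gtcaccatgacgACACTGGGCTATGGAgac
Kcnh3: agcagtctcaccAGTGTGGGCTTCGGCaac
Kcnh7: agcagtctaaccAGTGTAGGATTTGGAaat
Kcnt1: gtgactttctcaACTGTGGGCTTCGGTgat
Kcnj2: gagacccagacaACCATTGGCTATGGTttc
Kcnj8: gaggttcaagtgACCATTGGGTTTGGAggg
Kcnj9: gagacggagaccACCATCGGCTATGGGcac
Kcnk3 (copy 2): atcaccctcaccACCATCGGCTTCGGCgac

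All of these windows lie in coding exons. That of Kcns3 is at chr12:11091572-11091601 on the minus strand, in exon 3 of 3, that of Kcnj8 at chr6:142566445-142566474 on the minus strand, in exon 3 of 3, and that of Kcnh7 at chr2:62777340-62777369 on the minus strand, in exon 8 of 16. The windows of Kcns3 and Kcnf1 differed at 3 of 30 bases and those of Kcnh3 and Kcnh7 at 6. The fourth codon of the signature encoded tyrosine in every Kv1, Kv2, Kv3, Kv4 and modifier gene and phenylalanine in 8 of 8 EAG genes. Among 13 inward rectifiers it encoded phenylalanine in 2, Kcnj8 and Kcnj11, which form the pores of ATP-sensitive potassium channels.

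Library totals ranged from 11726129 to 41767119 counts, and the potassium channel genes took 0.412% to 0.553% of them. Levels are given below as CPM (read counts scaled to a common library size), normalised by trimmed means of M-values (TMM) over all 79 libraries. In mPFC 20 genes had a mean of at least 100 CPM and 20 a mean below 1 CPM, and in vHipp these counts were 14 and 19. A filter on total counts left 78 genes for tests within either region and 82 for tests between regions. The genes not tested within a region were Kcna7, Kcna10, Kcnj1, Kcnk16, Kcnk18, Kcnmb3 and Kcnv2, none of which reached more than 10 counts over all libraries of a region. The mPFC and vHipp libraries followed their labels. All 5 of a list of cortical neuron genes were higher in mPFC, and 4 of 5 hippocampal neuron genes were higher in vHipp. The vHipp library of mouse 11 (CSDS with ketamine) stood apart from the other libraries. In vHipp mouse 11 had 3043 CPM of 5 astrocyte genes, against a median of 1049.5 CPM in its group, 491 CPM of 5 microglial genes (median 196) and 474 CPM of 6 endothelial and mural genes (median 197). The vHipp library of mouse 9 (CSDS with saline) had 708 CPM of 7 choroid plexus genes, against a median of 30.2 CPM in its group, and the lowest share of potassium channel counts. The main counts for stress in vHipp are given with and without mouse 9, mouse 11 or mouse 1 (CSDS with ketamine). Potassium channel genes took 0.446% of the vHipp and 0.484% of the mPFC counts of mouse 1. They took less in mouse 24 (CTRL with saline), 0.437% and 0.479%. In mPFC the sum of 5 oligodendrocyte genes ran from 494 to 5815 CPM. It was highest in mouse 22 (CTRL with saline, group median 1164 CPM). No CTRL mouse was left out on its own in these fits.

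Comparing levels between genes needs a correction for length, so CPM were divided by the exon length of the gene in kb. Summed over the genes, the auxiliary class held the largest share of these length-corrected CPM in both regions, 20.3% (SD 0.884, n = 39) in mPFC and 28.7% (SD 2.66, n = 40) in vHipp. Kcnab2, a cytoplasmic beta subunit of Kv1 channels, was the most abundant potassium channel gene per kb in both regions, with 54.7 CPM per kb (SD 4.69) in mPFC and 100.2 CPM per kb (SD 15.1) in vHipp. By this length it was followed in mPFC by the inward rectifiers Kcnj4 (52.2 CPM per kb, SD 4.77), from which it differed by less than 1 SD, and Kcnj9 (46.1 CPM per kb, SD 3.17). Divided by the length of its longest transcript, Kcnab2 had 97.4 CPM per kb in mPFC and 178 CPM per kb in vHipp, whereas Kcnj4 kept its value in mPFC. In vHipp it was followed by Kcnip2, a calcium-binding partner of Kv4 channels, at 62.4 CPM per kb (SD 9.60).

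Some class shares separated the regions and others overlapped. EAG channels, slowly gating relatives of the cardiac HERG channel, took 9.05% to 12.4% of the length-corrected CPM in mPFC libraries and 4.45% to 5.92% in vHipp libraries. The ranges of the 2 regions did not overlap. They did not overlap either for the inward rectifiers (17.8% to 21.8% in mPFC, 11.5% to 16.9% in vHipp) or for the auxiliary class (18.5% to 22.6% against 23.4% to 33.5%). Among the 8 classes shown, each of these 3 differed the same way in 39 of 39 mice with both regions. So did the Kv4 class (lower in mPFC) and the calcium- and sodium-activated class (higher in mPFC), whose ranges overlapped. The Kv1 share differed least, being higher in mPFC in 27 of 39 mice.

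**Figure D1:**
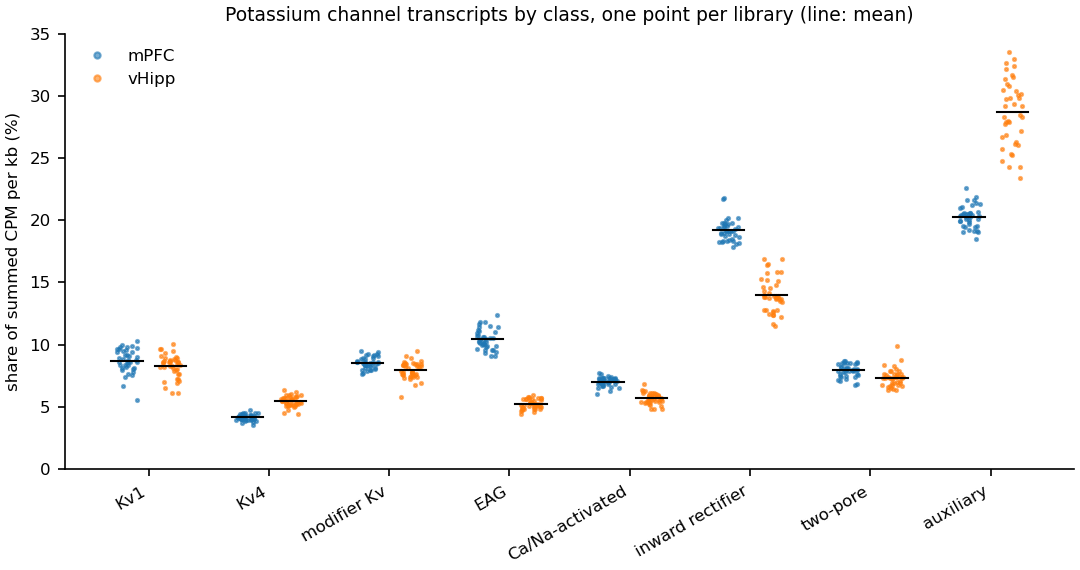
Share of the length-corrected CPM of the 85 potassium channel genes (vertical axis, percent) taken by each of 8 of the 10 classes, with 1 point per library and a line at the mean, for mPFC (39 libraries, blue) and vHipp (40 libraries, orange). EAG and inward rectifier shares lie higher in mPFC, and auxiliary shares higher in vHipp, with no overlap between the regions.

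The difference between regions, mPFC minus vHipp, was tested with the mean of the 4 groups of each region. By edgeR (quasi-likelihood, p-values adjusted over all genes by Benjamini-Hochberg), 61 of 82 potassium channel genes (74.4%) differed at an adjusted p below 0.05, compared with 48.9% of all 31534 genes tested. Among genes of at least 1 CPM the counts were 56 of 65 potassium channel genes and 67.3% of all genes. Of these 61 differentially expressed genes (DEGs), 35 were higher in mPFC and 26 lower, compared with 24.5% and 24.4% of all genes. With the mouse as a block, 62 potassium channel genes and 49.0% of all genes passed. Of the 61 DEGs, 49 were DEGs in each group on its own, as were 18.4% of all genes. The median absolute log2 fold change (LFC, given below with its standard error, SE) of the potassium channel genes of at least 1 CPM was 0.49, compared with 0.18 for all genes of that level. In 15 of the DEGs the difference was at least 2-fold (13.0% of all genes), 9 of them higher in mPFC, and in 17 of 82 genes the ranges of the 2 regions did not overlap (2.92% of all genes). The shares of 18.4%, 13.0% and 2.92% are over all genes tested and are not matched for level. Of these 31534 genes 15701 had at least 1 CPM, against 65 of the 82 potassium channel genes.

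**Figure D2:**
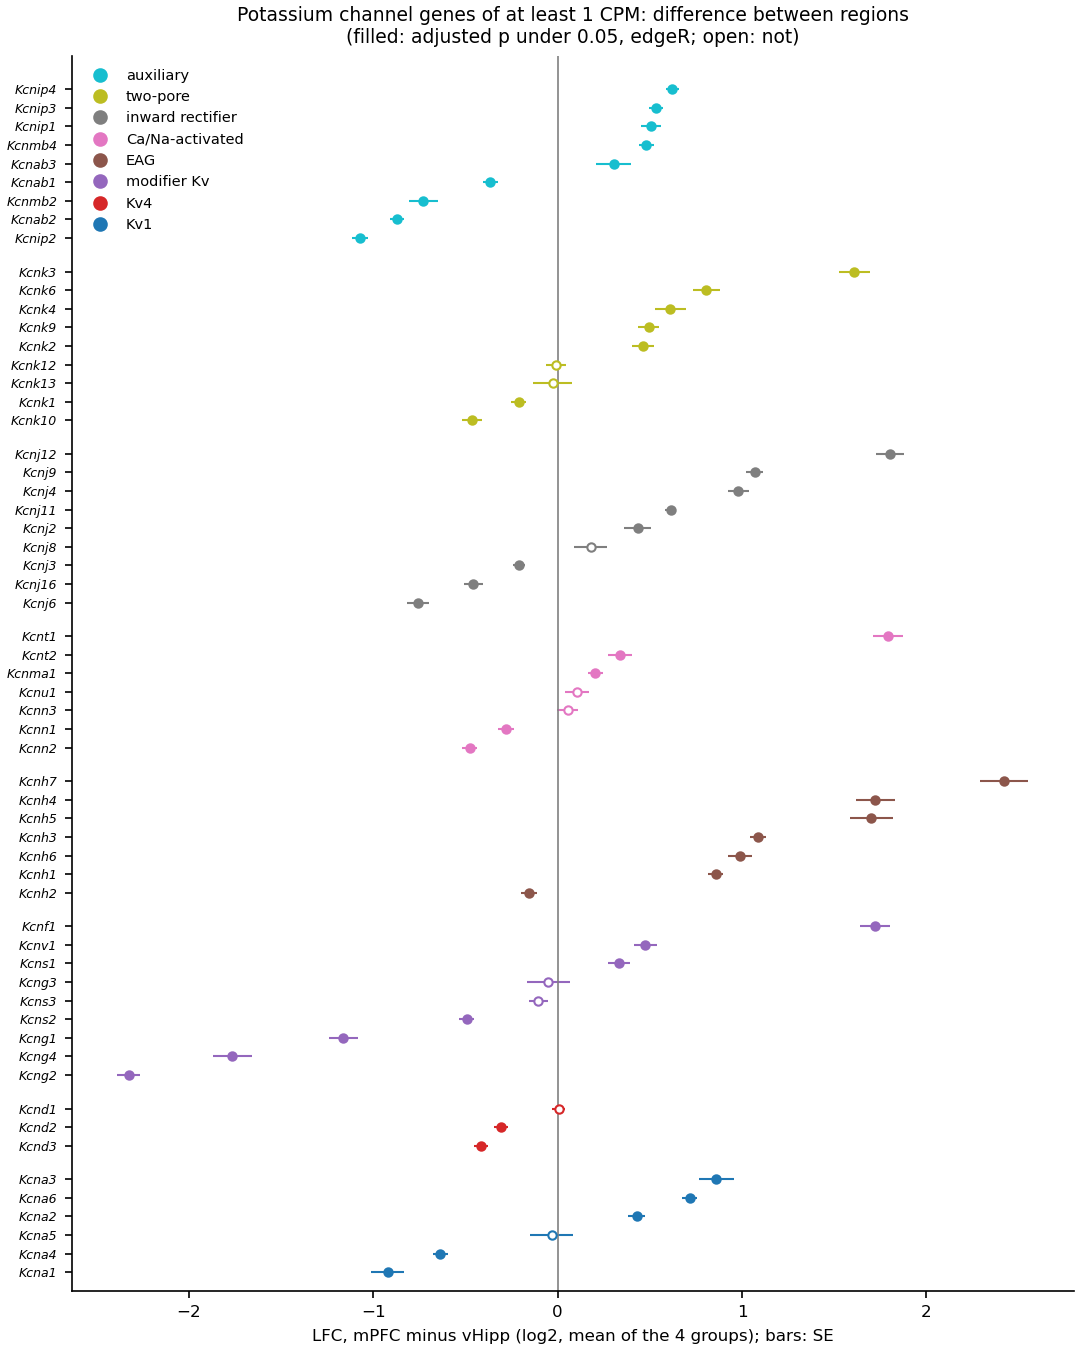
LFC between regions (horizontal axis, log2, mPFC minus vHipp, mean of the 4 groups) with its SE for 59 potassium channel genes of at least 1 CPM in the same 8 classes. Filled points passed an adjusted p of 0.05 in edgeR's quasi-likelihood test, and 6 of the 7 EAG genes shown lie to the right of 0.

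In the EAG class 6 of 8 genes were higher in mPFC and 2 lower. Kcnh7, an ERG-type subunit, had the largest difference of all potassium channel genes. It ranged from 104.1 to 237 CPM (median 172) in mPFC and from 9.91 to 74.2 CPM (median 31.8) in vHipp, so that the regions did not overlap (LFC 2.42, SE 0.13, 5.36-fold). Kcnh4 and Kcnh3, both ELK-type subunits, also differed without overlap. Kcnh4 had 14.5 to 31.6 CPM in mPFC and 1.78 to 14.0 CPM in vHipp (LFC 1.72, SE 0.10), and Kcnh3 had 171 to 283 CPM and 81.1 to 133.2 CPM (LFC 1.09, SE 0.043). Kcnh5 (LFC 1.70, SE 0.12) and Kcnh1 (LFC 0.86, SE 0.041), the EAG-type pair, were higher in mPFC in 39 of 39 mice. Kcnh2, the HERG gene itself, differed little and in the other direction (LFC -0.16, SE 0.041), with 23.4 to 39.6 CPM in mPFC and 22.3 to 40.2 CPM in vHipp.

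Among the Kv1 genes, which encode the low-threshold channels of axons, 3 were higher in mPFC and 2 lower. Kcna2 was the most abundant of them, with 229 to 450 CPM in mPFC and 181 to 347 CPM in vHipp (LFC 0.43, SE 0.045), ranges that overlapped although every mouse was higher in mPFC. Kcna6 (LFC 0.72, SE 0.040) and Kcna3 (LFC 0.86, SE 0.095) were also higher. Kcna1 was lower in mPFC in 38 of 39 mice, with a median of 49.2 CPM in mPFC and 96.3 CPM in vHipp (LFC -0.92, SE 0.088), and Kcna4, an inactivating subunit, had medians of 23.7 and 37.0 CPM (LFC -0.64, SE 0.041). Kcna1 and Kcna6 lie 61945 bases apart on the same strand of chromosome 6 and differed in opposite directions. The exons of Kcna6 share 39.6% of their bases with Gm26673 on the other strand, and the sources used here do not state whether counting used the strand.

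Kcnb2, a Kv2 gene whose channels carry a slow delayed rectifier, was higher in mPFC (LFC 0.42, SE 0.056). The Kv3 class, whose channels repolarize fast-spiking neurons, split in direction. Kcnc2 (LFC -0.45, SE 0.061) and Kcnc1 (LFC -0.34, SE 0.031) were lower in mPFC, whereas Kcnc4 was higher (LFC 0.42, SE 0.052). Of the Kv4 genes, which encode the A-type current of dendrites, Kcnd3 (LFC -0.41, SE 0.037) and Kcnd2 (LFC -0.31, SE 0.037) were lower in mPFC. Kcnd1 did not pass the test (LFC 0.01, SE 0.034).

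The modifier class holds subunits that give no current alone and join Kv2 subunits. Here 3 of 10 genes were higher in mPFC and 4 lower, and Kcng2 had the largest difference towards vHipp of all potassium channel genes. Kcnf1 had 119.3 to 195 CPM in mPFC and 20.8 to 90.4 CPM in vHipp (LFC 1.72, SE 0.082). Kcng2 had 4.14 to 13.1 CPM in mPFC and 24.3 to 41.8 CPM in vHipp (LFC -2.33, SE 0.061, 5.01-fold), and Kcng4 had 1.20 to 4.38 CPM and 4.49 to 15.6 CPM (LFC -1.76, SE 0.10). None of these ranges overlapped. Kcng1 was lower in mPFC as well (LFC -1.16, SE 0.077), as was Kcns2 (LFC -0.49, SE 0.042), and Kcnv1 was higher (LFC 0.48, SE 0.064). Kcns3, a silent subunit known from cortical parvalbumin interneurons, had similar levels in both regions. It ranged from 4.59 to 9.90 CPM (median 7.47) in mPFC and from 4.24 to 10.6 CPM (median 7.93) in vHipp and did not pass the test (LFC -0.10, SE 0.052, adjusted p = 0.0939 by edgeR, quasi-likelihood, Benjamini-Hochberg).

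Of the calcium- and sodium-activated channels, 4 of 8 were higher in mPFC and 2 lower. Kcnt1, the sodium-activated channel also called Slack, had 120 to 202 CPM in mPFC and 23.0 to 76.2 CPM in vHipp, without overlap (LFC 1.79, SE 0.081, 3.46-fold). Its relative Kcnt2 differed less (LFC 0.34, SE 0.066), as did Kcnma1, the large-conductance BK channel (LFC 0.20, SE 0.041). The small-conductance channels Kcnn2 (LFC -0.48, SE 0.040) and Kcnn1 (LFC -0.28, SE 0.045) were lower in mPFC, and Kcnn3 did not pass the test (LFC 0.05, SE 0.055).

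The inward rectifiers split evenly, with 5 of 13 higher in mPFC and 5 lower. The strong rectifiers Kcnj12 and Kcnj4 were among the higher ones, whereas Kcnj14 had a mean below 1 CPM in mPFC and of 1.54 CPM in vHipp. Kcnj12 had 10.1 to 17.0 CPM in mPFC and 1.79 to 6.06 CPM in vHipp (LFC 1.80, SE 0.077), and Kcnj4 had 92.2 to 135.1 CPM and 35.9 to 90.98 CPM (LFC 0.98, SE 0.056). The G-protein-activated subunits went separate ways. Kcnj9 was higher in mPFC without overlap, with 165 to 227 CPM against 60.2 to 140 CPM (LFC 1.07, SE 0.046), but Kcnj6 (LFC -0.76, SE 0.060) and Kcnj3 (LFC -0.21, SE 0.032) were lower. Kcnj2 and Kcnj16, which lie 38196 bases apart on chromosome 11, also differed in opposite directions (LFC 0.43, SE 0.073, and LFC -0.46, SE 0.050). Of the ATP-sensitive pores, Kcnj11 was higher in mPFC (LFC 0.61, SE 0.031) and Kcnj8 did not pass the test (LFC 0.18, SE 0.089).

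Of 12 two-pore genes tested, 5 were higher in mPFC and 2 lower. Kcnk3, the acid-sensitive TASK channel, had 16.5 to 36.0 CPM in mPFC and 4.21 to 14.1 CPM in vHipp, with no overlap (LFC 1.61, SE 0.084). Its close relative Kcnk9 was more abundant and differed less, with medians of 168 and 115.9 CPM (LFC 0.49, SE 0.055). Kcnk1, the most abundant two-pore gene per kb in both regions, was lower in mPFC (LFC -0.21, SE 0.039). Among 14 auxiliary genes tested, 6 were higher in mPFC and 4 lower, and the Kv4-binding KChIP genes were divided. Kcnip4 (LFC 0.62, SE 0.035), Kcnip3 (LFC 0.54, SE 0.038) and Kcnip1 (LFC 0.51, SE 0.055) were higher in mPFC. Kcnip2, with 85.7 to 141.4 CPM in mPFC and 143.3 to 290 CPM in vHipp, was lower without overlap (LFC -1.07, SE 0.043), as was Kcnab2, with 327 to 477 CPM and 479 to 903 CPM (LFC -0.87, SE 0.039).

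Genes of other families whose proteins bind these channels were taken as a list of partners. Of 17 tested, 9 were higher in mPFC and 2 lower, a count to be read against the 48.9% of all genes and 67.3% of genes of at least 1 CPM that differed. The Kv4-binding membrane proteins Dpp10 and Dpp6 differed in opposite directions (LFC 2.43, SE 0.051, and LFC -0.57, SE 0.029). Lrrc38, a gamma subunit of BK channels, was higher in mPFC (LFC 1.26, SE 0.14), as was the pacemaker channel Hcn4 (LFC 0.84, SE 0.076). Lgi1, a secreted protein that binds the Kv1 complex through its receptors, was lower (LFC -0.63, SE 0.031).

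Within each region, CSDS was compared with CTRL in mice given saline and in mice given ketamine, ketamine with saline in CTRL and in CSDS mice, and the mean effects and their interaction were tested, giving 7 comparisons per region. By edgeR's quasi-likelihood test, adjusted after Benjamini and Hochberg, 0 of 78 potassium channel genes and 0 genes in all (0%) were DEGs in each of the 14 comparisons. Under 199 alternatives of filter, normalization, tool, set and left-out mice, 196 gave 0 potassium channel DEGs as well. The other 3 concerned Kcns3 and Kcnj8 in vHipp and are given below. At an unadjusted p below 0.05, the number of potassium channel genes lay between 0 and 5 of 78 in 11 of the comparisons. In vHipp it was 11 (14.1%, against 5.57% of all 28991 genes) for CSDS against CTRL with saline, 6 (7.69% against 5.42%) with ketamine, and 20 (25.6% against 9.71%) for the mean of both. The shares in this paragraph are over all genes tested and are not matched for level. In vHipp 15575 of the 28991 genes had at least 1 CPM, against 66 of the 78 potassium channel genes. Of the 20 genes for the mean, 8 had higher and 12 lower values in CSDS mice (5.31% and 4.40% of all genes), and for those of at least 1 CPM no LFC was larger than 0.62. Without mouse 11 the counts were 13 with saline (16.7%, against 6.35% of all genes), 5 with ketamine (6.41% against 4.14%) and 15 for the mean (19.2% against 8.53%). Without mouse 1 they were 11 (14.1% against 5.71%), 6 (7.69% against 5.94%) and 17 (21.8% against 10.0%). Without mouse 9 they were 8 (10.3% against 4.99%), 6 (7.69% against 5.59%) and 17 (21.8% against 8.86%). For the mean, 6 genes were higher and 9 lower without mouse 11, and 8 were higher and 9 lower without mouse 1 and likewise without mouse 9. With saline, 5 of 78 genes (6.41%) had lower values in CSDS mice, against 2.50% of all genes, and 6 (7.69%) had higher values, against 3.07%. Without mouse 9, 1 of 78 (1.28%) was lower, against 2.41% of all genes, and 7 (8.97%) were higher, against 2.58%.

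Kcne2, an auxiliary subunit known from the choroid plexus, was among the 11 genes with saline. It had 2.81 CPM in the vHipp library of mouse 9 and at most 0.256 CPM in the other libraries of that group (median 0.0876 CPM), so that 1 library held its high value. It was chosen after its values were seen. With saline, 4 of 7 choroid plexus genes had higher values in CSDS mice at an unadjusted p below 0.05, and 2 of 7 did without mouse 9. The part of this tissue in the counts above was not tested.

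By edgeR, Kcns3 had the smallest p of all genes for the mean effect of stress in vHipp. It was singled out after its values had been seen in these data, so its tests are not independent support. In vHipp it ranged from 4.24 to 8.19 CPM (median 6.83) in CTRL mice with saline and from 7.86 to 10.6 CPM (median 8.49) in CSDS mice with saline, from 86 to 286 counts a library. With ketamine it ranged from 6.32 to 8.47 CPM (median 7.23) in CTRL mice and from 7.00 to 9.89 CPM (median 8.46) in CSDS mice. The groups overlapped narrowly in the saline arm and more widely in the ketamine arm. The LFC was 0.41 (SE 0.090, adjusted p = 0.346 by edgeR, quasi-likelihood, Benjamini-Hochberg) with saline, 0.19 (SE 0.090, adjusted p = 0.896) with ketamine and 0.30 (SE 0.064, adjusted p = 0.323) for the mean. The difference between the arms was not shown (interaction LFC -0.21, SE 0.13, adjusted p = 1.00). By DESeq2 with a covariate for the set of a mouse (5 sets of mouse numbers, each joining a run of 4 CSDS and a run of 4 CTRL mice), Kcns3 was the only DEG with saline (0.00345% of genes, LFC 0.41, SE 0.084, adjusted p = 0.0307).

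A permutation test on the log2 CPM of Kcns3 alone gave a difference of 0.36 with saline in vHipp (two-sided p = 0.00016, adjusted over 8 comparisons 0.00128), with CSDS mice higher in 94 of 100 pairs. With ketamine the difference was 0.17 (permutation p = 0.0203, adjusted 0.0812), with 81 of 100 pairs. These tests and those of edgeR and DESeq2 treat the mice of an arm as independent, although stress was applied to mice living in groups of 4 and each arm may hold 2 mice of a group, in which case their p-values are too small. With the mean of each run of 4 mouse numbers as 1 value (5 against 5, added after the values had been seen), an exact permutation test gave p = 0.00794 with saline, the smallest it can give, and p = 0.0317 with ketamine, neither adjusted for the number of tests. The labels do not say whether such a run is a group of mice. In mPFC the medians were 7.70 CPM in CTRL and 6.50 CPM in CSDS mice given saline, a difference of -0.12 by permutation (p = 0.290, adjusted 0.464). The effect of stress on Kcns3 in mPFC minus that in vHipp had an LFC of -0.39 (SE 0.10, adjusted p = 0.532 by edgeR, quasi-likelihood, Benjamini-Hochberg). In that test 16 of 82 potassium channel genes (19.5%) had an unadjusted p below 0.05, against 6.86% of all genes, and without mouse 1 17 of 82 did (7.27% of all genes), without mouse 9 14 of 81 (6.30%) and without mouse 11 16 of 81 (5.92%). These shares are not matched for level either. Of all 31534 genes tested 15701 had at least 1 CPM, against 65 of the 82 potassium channel genes. Beside Kcns3, the sum of 5 genes of parvalbumin interneurons in vHipp had a median of 750 CPM in CTRL and 848 CPM in CSDS mice with saline, and of 813 and 890 CPM with ketamine. For the mean effect of stress in vHipp, 4 of the 5 genes had a positive LFC (median 0.11) and 1, Pvalb, had an unadjusted p below 0.05 (LFC 0.33, SE 0.12). Pvalb was chosen after its values were seen, and the part of these cells in the Kcns3 values was not tested.

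Kcnj8, which forms the pore of the ATP-sensitive channel of pericytes and smooth muscle, followed Kcns3 by the p of edgeR for the mean effect of stress in vHipp. In vHipp it ranged from 0.937 to 2.73 CPM (median 1.77) in CTRL and from 2.01 to 3.85 CPM (median 2.41) in CSDS mice with saline, and from 1.31 to 2.52 CPM (median 1.60) and 1.33 to 5.02 CPM (median 2.43) with ketamine. These levels rested on 19 to 88 counts a library, and the groups overlapped in both arms. The LFC was 0.60 (SE 0.19) with saline, 0.65 (SE 0.19) with ketamine and 0.62 (SE 0.14, adjusted p = 0.323 by edgeR, quasi-likelihood, Benjamini-Hochberg) for the mean. Abcc9, which encodes the regulatory subunit that assembles with it, had an LFC of 0.38 (SE 0.12) for the mean, whereas Abcc8, the partner of Kcnj11 in neurons, had an LFC of -0.16 (SE 0.078). Both were picked from the list of partners, and neither passed the adjusted test. The sum of 6 endothelial and mural genes had a median of 183 CPM in CTRL and 215 CPM in CSDS mice with saline, and of 192 and 197 CPM with ketamine, and for the mean of both arms 4 of the 6 had higher values in CSDS at an unadjusted p below 0.05. For that mean, 5 of 5 microglial and 4 of 5 astrocyte genes did so as well, against 5.31% of all genes. Without mouse 11 these counts were 3 of 6, 3 of 5 and 2 of 5. In the saline arm they were 2, 1 and 0, and 2, 3 and 3 without mouse 11. In the ketamine arm they were 2, 4 and 2, and 1, 0 and 0 without it. The part of these cells in the result was not tested.

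DESeq2 adds an optional filter on mean counts, which left an adjusted p for only 2012 genes, 13 of them potassium channel genes, in the mean effect of stress in vHipp. With all genes adjusted, Kcns3 was the only DEG of DESeq2 (adjusted p = 0.0440), and with the covariate for the set 14 genes (0.0483%) were DEGs, among them Kcns3 (LFC 0.31, SE 0.060, adjusted p = 0.00888) and Kcnj8 (LFC 0.63, SE 0.14, adjusted p = 0.0310). This adjustment was added after the values had been seen. Without mouse 11, edgeR gave Kcns3 an LFC of 0.29 (SE 0.063) and Kcnj8 one of 0.56 (SE 0.13) for the mean, and without mouse 1 0.31 (SE 0.064) and 0.64 (SE 0.14). Without mouse 9 these LFCs were 0.31 (SE 0.064) and 0.62 (SE 0.14). As each set joins CSDS and CTRL mice, it does not stand for the box of a mouse.

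**Figure D3:**
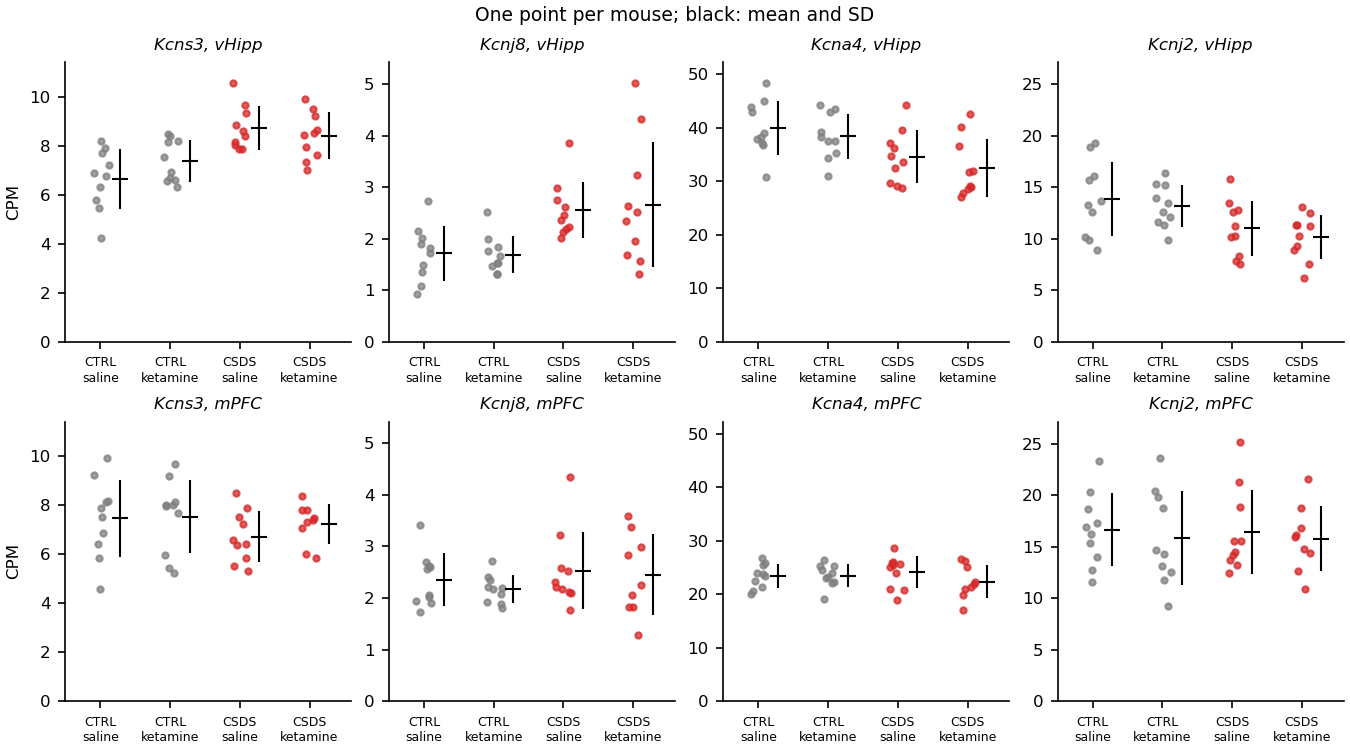
CPM (vertical axis, from 0) of Kcns3, Kcnj8, Kcna4 and Kcnj2 in vHipp (top row) and mPFC (bottom row), with 1 point per mouse in each of the 4 groups of stress and treatment and the mean with SD in black. In vHipp the CSDS points of Kcns3 lie between 7.00 and 10.6 CPM, and in mPFC the 4 groups overlap for all of these genes.

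Kcna4 and Kcnj2 had lower values in vHipp of CSDS mice. Kcna4 ranged from 30.9 to 48.4 CPM (median 38.6) in CTRL and from 28.8 to 44.3 CPM (median 34.2) in CSDS mice with saline, and had medians of 37.9 and 30.4 CPM with ketamine (LFC for the mean -0.21, SE 0.060). Kcnj2, a strong inward rectifier, ranged from 8.95 to 19.3 CPM (median 13.5) and from 7.57 to 15.9 CPM (median 10.8) with saline, and had medians of 13.0 and 10.8 CPM with ketamine (LFC for the mean -0.34, SE 0.098). The groups overlapped widely for both genes. Both genes had an adjusted p of 0.323 (by edgeR, quasi-likelihood, Benjamini-Hochberg). Of the fast Kv3 genes, Kcnc4 had an LFC of -0.27 (SE 0.093). The modifier Kcng4 had medians of 6.22 and 9.59 CPM in CTRL and CSDS mice with saline, and of 6.32 and 8.02 CPM with ketamine (LFC for the mean 0.38, SE 0.13). Of the 8 EAG genes, Kcnh4 (LFC -0.45, SE 0.18), Kcnh5 (LFC -0.37, SE 0.18) and Kcnh1 (LFC -0.18, SE 0.067) had lower values in CSDS mice. None of them passed the adjusted test, and the other EAG genes are not described here. Without mouse 9 the LFC of Kcnh5 was -0.32 (SE 0.18) and its unadjusted p from edgeR was 0.0721.

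The saline and the ketamine arm have no mice in common, so that the effect of stress could be set side by side. By the study's methods, however, mice lived in groups of 4, and each run of 4 mouse numbers holds 2 mice with saline and 2 with ketamine, so that the arms may share cages and boxes and are not independent of each other. In vHipp 51 of 66 potassium channel genes of at least 1 CPM (77.3%) had the same sign in both arms, compared with 69.0% of all genes, 15 of them positive and 36 negative. Kcna4, Kcnj2, Kcnj8 and Kcns3 had an unadjusted p below 0.05 and the same sign in both arms, which was so for 0.822% of all genes. Without mouse 11, Kcns3 dropped out of this count and 0.392% of all genes were left in it. Of the genes of at least 1 CPM, 48 (72.7%, against 67.6% of all genes) had the same sign without mouse 1, and 50 (75.8% against 64.9%) without mouse 11. Without mouse 9, 46 of 66 potassium channel genes (69.7%) and 65.0% of all genes had the same sign, and Kcna4 dropped out of the count, in which 0.616% of all genes were left. In mPFC 31 of 65 genes (47.7%) had the same sign, against 40.7% of all genes, and 0 potassium channel genes passed in both arms (0.0255% of all genes).

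**Figure D4:**
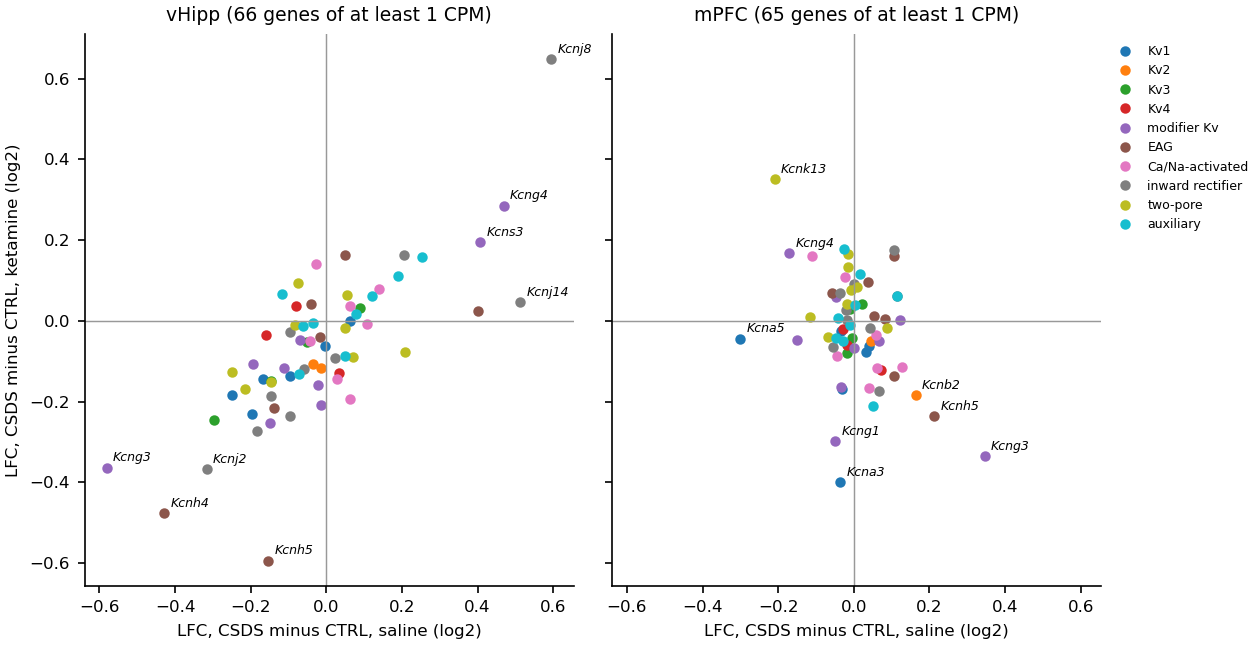
LFC of CSDS minus CTRL with saline (horizontal axis) against that with ketamine (vertical axis, both log2) for potassium channel genes of at least 1 CPM, in vHipp (66 genes, left) and mPFC (65 genes, right), coloured by class. In vHipp 51 genes lie in the quadrants of equal sign, with Kcnj8 at the upper right, and in mPFC 31 do.

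In mPFC the potassium channel genes with an unadjusted p below 0.05 for CSDS against CTRL numbered 3 with saline (2.94% of all genes), 4 with ketamine (5.80%), 4 for the mean of both (3.52%) and 4 for the interaction of stress and ketamine (5.31%), each of 78. Kcnj9 had the smallest p for the mean effect, with an LFC of 0.09 (SE 0.031). Kcng3, a low-abundance modifier, had an LFC of 0.35 (SE 0.16) with saline and -0.34 (SE 0.17) with ketamine, and an interaction of -0.68 (SE 0.23, adjusted p = 0.898 by edgeR, quasi-likelihood, Benjamini-Hochberg). Kcnd3 (LFC -0.19, SE 0.075) and Kcnb2 (LFC -0.35, SE 0.13) followed in the same test. Kcna3 (LFC -0.40, SE 0.16) and Kcns2 (LFC -0.16, SE 0.068) had the smallest p for CSDS against CTRL with ketamine.

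For ketamine against saline, the potassium channel genes with an unadjusted p below 0.05 numbered 4 in CTRL and 5 in CSDS mice in mPFC (3.64% and 4.32% of all genes), and 0 and 2 in vHipp (2.88% and 2.90%). For the mean of both stress groups they numbered 2 in mPFC (3.07%) and 3 in vHipp (3.39%), and for the interaction in vHipp 0 (2.84%). The effect of ketamine differed between the regions at that level in 1 of 82 genes (3.46%). In mPFC of CSDS mice Kcns2 had an LFC of -0.21 (SE 0.068) and Kcnd3 one of -0.16 (SE 0.054), the smallest p among them. In mPFC of CTRL mice these were Kcnk1 (LFC -0.21, SE 0.080) and Kcng3 (LFC 0.40, SE 0.16). In vHipp Kcnd1 had an LFC of 0.16 (SE 0.065) in CSDS mice, and Kcns3 had LFCs of 0.15 (SE 0.090) in CTRL mice and -0.07 (SE 0.090) in CSDS mice. The adjusted p of each of these genes was at least 0.993 (by edgeR, quasi-likelihood, Benjamini-Hochberg).

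The spread between mice of a group limits what such comparisons can show. The biological coefficient of variation, the spread of a gene between mice of a group beyond counting error, had a median of 12.8% over the potassium channel genes of at least 1 CPM in mPFC and 17.8% in vHipp, compared with 11.5% and 13.4% over all genes of that level. It was lowest in mPFC for Kcnj9 (7.26%) and Kcnj11 (7.28%), and highest in vHipp for Kcnh7 (49.8%), Kcng3 (40.9%), Kcnh5 (39.3%) and Kcnh4 (39.1%). Of the 4 genes that varied most between vHipp punches, 3 were thus EAG genes that were lower there than in mPFC.

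Since 39 mice gave both regions, the deviation of a mouse from its group mean could be compared between mPFC and vHipp. Of 65 potassium channel genes of at least 1 CPM in both regions, 14 (21.5%) had a correlation past an adjusted permutation p of 0.05, all positive, compared with 38.5% of all 15184 genes. The median Pearson r was 0.21, against 0.29 for all genes. Kcnd2, the main dendritic A-type channel, had r = 0.72 (permutation p = 1e-05, the smallest these permutations can give, adjusted 0.000128) and Spearman rho = 0.52 (permutation p = 0.00104, adjusted 0.00603), and without the 2 mice farthest from the median r was 0.61. Kcnb2 had r = 0.72 (same permutation p, adjusted 0.000128), rho = 0.67 (same p, adjusted 0.000184), and 0.69 without the farthest 2. Kcnt2 had r = 0.65 (permutation p = 3e-05, adjusted 0.000291), rho = 0.67 (p = 1e-05, adjusted 0.000184), and 0.68 without the farthest 2.

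Kcna2 (r = 0.60, permutation p = 7e-05, adjusted 0.000564, rho = 0.60, p = 1e-04, adjusted 0.00100, 0.54 without the farthest 2) and Kcnj6 (r = 0.50, permutation p = 0.00145, adjusted 0.00634, rho = 0.45, p = 0.0039, adjusted 0.0164, 0.38 without the farthest 2) came next. Both libraries of a mouse can share handling and sequencing, and the points were not corrected for it. Without mouse 1, 10 genes passed (31.8% of all genes), and without mouse 11, 16 did (36.3%). With the mean of each set of mouse numbers removed, 12 passed (28.0% of all genes). Kcnd2, Kcnb2, Kcnt2, Kcna2 and Kcnj6 passed both without mouse 1 and without mouse 11. Kcns3 had an r of 0.01 and Kcnj8 one of 0.10, which was 0.36 without mouse 11 (permutation p adjusted 0.0697).

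**Figure D5:**
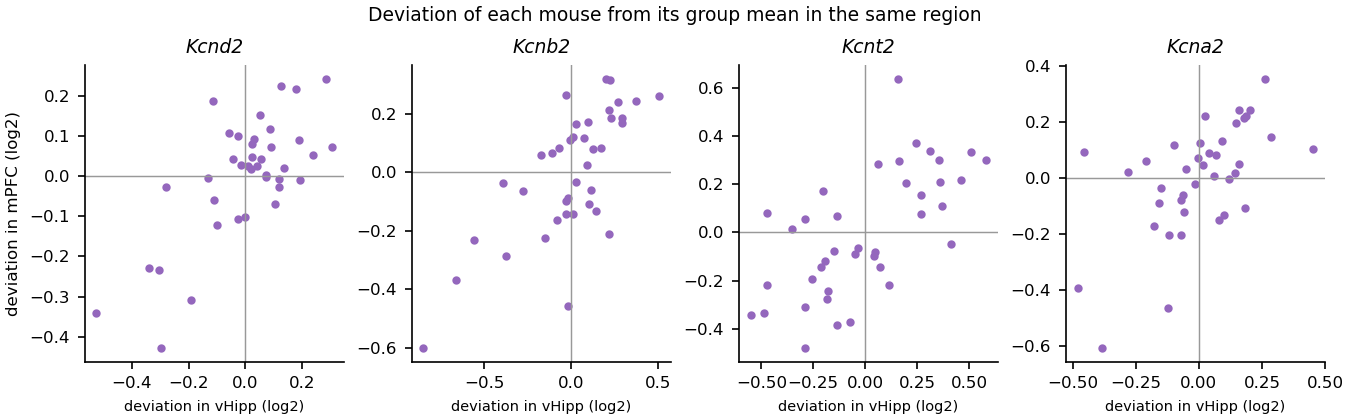
Deviation of each of 39 mice from the mean of its group in vHipp (horizontal axis) and in mPFC (vertical axis), both in log2 of CPM plus 1, for Kcnd2, Kcnb2, Kcnt2 and Kcna2. Mice low in one region tend to be low in the other, with r between 0.60 and 0.72.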

How the data were processed

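Punches of mPFC and vHipp were profiled by stranded mRNA sequencing. The authors deposited 1 table of raw counts per gene for 79 libraries, and per the labels reads were demultiplexed with bcl2fastq 2.20.0.422 and the build was GRCm38. The aligner and the counter are not given in the sources used here. Symbols were matched by Ensembl identifier to GENCODE mouse release M21, which named 55144 of 55471 genes. The members and gene lists were chosen with earlier results of these data known.

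Genes were kept where total counts exceeded 10 and more than 3 libraries detected them. Within each region 1 design with a term per group was fitted with edgeR 4.0.16 (TMM, quasi-likelihood, Benjamini-Hochberg adjustment over all genes, R 4.3.3), and 1 design over the 8 groups served for the regions. The SE of an LFC was taken as its size divided by the root of F. DESeq2 1.42.0 served as an alternative. Totals of 11726129 to 41767119 counts (median 19638060) limit precision for genes below about 1 CPM. Labels give a mouse number, which pairs the regions. Same-mouse libraries correlated with a median r of 0.277 over 39 pairs (lowest -0.036), and libraries of different mice with -0.0015. The box of a mouse is not labelled. As an alternative, 5 sets of mouse numbers, each joining a run of 4 CSDS and a run of 4 CTRL mice, were fitted as a covariate, which does not account for the box. Single-gene tests used 100000 permutations of log2(CPM + 1), two-sided. Replicates are separate mice. Alternatives were normalization, filter, tool, set, mouse block, pseudocount and leaving out each set or mouse 1, 9 or 11, these 3 mice being chosen after the data were seen. The fits and the correlation were tested on simulated data. Mouse 5 in mPFC is not analysed here.

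Named genes were Kcns3, the 5 genes with the smallest p of at least 1 CPM in each comparison within a region, the 15 largest DEGs in each direction between regions, the top gene per kb of each class, genes passing under any alternative, and the 5 highest correlations. Other genes named as family members, Pvalb among them, were chosen after their values were seen. The results of 2 members are not reported here.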

Additional observations from a re-analysis of the deposited data

Results flagged for a closer look

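Among the named genes, 164 groups of values (a gene in 1 of the 4 groups of a region) were searched for a mouse far from the rest of its group by Dixon's ratio. In 13 of them (7.93%) 1 mouse stood apart, where chance alone gives about 1 in 20. In mPFC these were Kcnd3 with a lowest value of 102.8 CPM and Kcnh2 with a highest of 39.6 CPM in CTRL mice given saline, Kcnh5 with 61.6 CPM and Kcnip4 with 91.9 CPM in CTRL mice given ketamine, and Kcnma1 with a lowest value of 249 CPM in CSDS mice given ketamine, in mouse 1. In vHipp they were Kcnd2 with a lowest value of 82.7 CPM in CTRL mice given saline, Kcnc4 with 132.7 CPM and Kcnj16 with 45.0 CPM in CTRL mice given ketamine, and Kcnab1 with 165 CPM and Kcnj16 with 63.2 CPM in CSDS mice given ketamine, the latter in mouse 11. In vHipp of CSDS mice given saline, Kcnj14 with 3.08 CPM and Kcnj8 with 3.85 CPM both came from mouse 4, and Kcns2 had 57.7 CPM in mouse 10.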

How the results depend on the processing

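All 450 alternatives of the region LFC of the named genes kept their sign and their side of the threshold. With the mouse as a block the regions differed in 62 potassium channel genes, 61 of which were also among the 61 found without the block, and no other call changed under the block. Within a region, 1 potassium channel gene was called in vHipp with saline by DESeq2 with the set covariate (Kcns3, LFC 0.41), and for the mean effect of stress there 1 was called by DESeq2 and 2 with the set covariate once all genes were adjusted. The cause was not tested. For Kcns3 alone, the permutation difference of CSDS and CTRL with ketamine in vHipp ranged from 0.137 to 0.208 when each set was left out. It lost its p below 0.05 without set 2 (difference 0.156, permutation p = 0.0670) or set 3 (difference 0.137, permutation p = 0.0883). In mPFC that comparison ranged from -0.112 to 0.0231 and turned sign without set 4 (0.0231), and ketamine against saline in CTRL mice ranged from -0.0406 to 0.0835 and turned sign without set 2 (-0.0406) or set 3 (-0.00805). With the longest transcript in place of all exons, 13 of 20 class sums per kb moved by more than 1 SD, and the most abundant Kv1 gene in vHipp became Kcna1. Depth limits genes of few counts, such as Kcnj8, and the spread between mice limits Kcnh4, Kcnh5 and Kcnh7 in vHipp.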
